A study of Mus musculus with 15 samples.

Results

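The comparison described here sets VSG159, a compound known here by its code name and listed by its submitters among the glucocorticoids, against dexamethasone (DEX), a synthetic glucocorticoid in wide clinical use. Its differences rest on 6 of the 15 arrays of the study, namely the 3 arrays titled VSG159 and the 3 titled DEX. The spread used in the tests was taken from all 15 arrays. The cells were RAW264.7, a mouse macrophage-like line transformed by a leukaemia virus, so each value describes 1 transformed line and not tissue macrophages. VSG159 cells and DEX cells both received their compound at 100 nM for 1 h and then lipopolysaccharide (LPS) at 1 ug per ml for 16 h. LPS is the bacterial cell wall component that activates macrophages through Toll-like receptor 4. The other arrays held fluticasone furoate (FF), the code-named compound VSG158 and the solvent controls, here called vehicle, with 3 arrays each. The LPS step stands in the protocol attached to every sample, while the vehicle labels name the solvents alone, so vehicle levels are given for orientation.

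Glucocorticoids enter the cell and bind the glucocorticoid receptor, which moves to the nucleus, switches on genes such as Fkbp5 and Tsc22d3 and holds back genes driven by NF-kB and AP-1. In macrophages they are known for lowering interleukins, chemokines, inducible nitric oxide synthase and cyclooxygenase-2 after LPS, and for raising feedback inhibitors such as Dusp1 and Zfp36. LPS itself slows the division of macrophage lines, and the cell cycle genes are therefore described beside the inflammatory ones.

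RNA was measured on one-colour Agilent arrays. A level is the log2 processed signal of a gene's brightest tested probe minus the array's 75th percentile, so a level of 0 equals that percentile and a difference of 1 is a 2-fold difference. Between 46.4% and 50.4% of spots other than controls passed as well above background on the 6 arrays, whose 75th percentiles of signal lay between 840 and 1220. Differences are VSG159 minus DEX and were tested across 19499 genes with limma, two-sided, with Benjamini-Hochberg adjusted p under 0.05 as the threshold for a call. The labels do not say whether the 3 samples of a group came from separate cultures, and the design text speaks of duplicates. The p-values measure a spread within groups that was pooled over all 15 arrays, and this spread may be technical. With the spread of the 6 arrays alone, limma called 0 genes (lowest adjusted p 0.0514).

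The arrays lay on 2 slides, and the slides divide the VSG159 group. VSG159 replicates 1 and 2 were on the first slide with vehicle and VSG158, whereas VSG159 replicate 3 shared the second slide with the 3 DEX arrays. VSG159 replicate 3 stood apart from its group: it correlated with VSG159 replicates 1 and 2 at 0.963 and 0.970, against 0.988 between those 2, and with the DEX arrays at 0.964 to 0.976 (all tested probes). Macrophage genes were high on all 6 arrays, with Lyz2 at 8.30 ± 0.14 with VSG159 and 8.15 ± 0.10 with DEX (SD, n = 3 each) and Adgre1, which encodes a macrophage surface receptor, at 5.49 ± 0.22 with VSG159 and 5.64 ± 0.05 with DEX (SD, n = 3 each), and 1 of 10 macrophage markers was called, namely the Fc receptor gene Fcgr1 (-0.47, SE 0.10, adjusted p = 0.0287), a call that ended without VSG159 replicate 2 or any 1 DEX array (adjusted p 0.0494 to 0.119 over the fits without 1 array). Among the markers of other cells, 4 of 7 T cell, 2 of 5 B cell, 2 of 5 fibroblast, 0 of 4 epithelial and 1 of 5 neutrophil or mast cell markers were measured, and 1 was called, the T cell kinase gene Lck (-0.48, SE 0.09, adjusted p = 0.0159), which was not called without VSG159 replicate 2 or DEX replicate 3 (adjusted p 0.0235 to 0.0759), nor with slide as a fixed block (-0.53, adjusted p = 0.0519). Its other probe gave -0.17 (adjusted p = 0.655). Elane, a neutrophil protease, had levels of 6.71, 6.54 and 4.78 on the VSG159 arrays, against 6.11, 5.88 and 6.80 on the DEX arrays, and the T cell marker Cd4 had 6.65, 6.40 and 4.72 on the VSG159 arrays, against 5.56, 6.27 and 6.61 on the DEX arrays. Both were lowest on VSG159 replicate 3 and overlapped between the groups. A second Cd4 probe, well above background on 2 VSG159 arrays and 0 DEX arrays, gave 0.89 (adjusted p = 0.181). The Cd4 probes thus disagree in sign and brightness. The part of Elane and Cd4 in the results was not tested.

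Among the gene lists counted here, several interleukin, colony-stimulating factor, chemokine and clotting-system genes were lower with VSG159. Some genes of nitric oxide metabolism, glycolysis, antiviral defence and MAPK phosphatases were lower as well. Many genes of DNA replication and mitosis were higher. In all, 1082 genes were called (5.55% of those tested), 281 higher (1.44%) and 801 lower (4.11%) with VSG159. Of these, 60 rises and 90 falls reached 2-fold. The groups did not overlap in all 281 genes called higher and in 800 of the 801 called lower, so a lack of overlap adds little to a call. Among all tested genes, 1453 lay higher and 3768 lower on every VSG159 array than on any DEX array. The median difference over all genes was -0.08. The share of higher calls, 26.0%, depended on the scaling, with 41.0% of 713 calls after quantile normalization, 41.2% of 466 after normexp background correction and quantile normalization, and 34.5% of 377 in the authors' deposited value table. Scaling each array to its median left 30 calls, all among the 1082, 8 higher and 22 lower, and moved the median of all genes to 0.02. With that scaling 6 proinflammatory cytokine genes were called lower, and 0 replication and 0 mitosis genes were called.

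Because the slides divide the VSG159 group, each difference was also fitted with slide as a fixed block, which in this design compares VSG159 replicate 3 with the 3 DEX arrays on the same slide and takes the spread of that lone array from the other groups. This gave 666 calls (3.42% of the genes), 281 higher (1.44%) and 385 lower (1.97%). Of the 1082 genes called without the block, 238 were also called with it in the same direction (93 higher, 145 lower) and 0 in the opposite one. VSG159 replicate 3 is part of both fits and lay on the side of the call in 1080 of these genes. An opposite call was therefore hardly possible, and the 0 is no separate check. Of the 150 genes called at least 2-fold, 75 were called with the block, 31 higher and 44 lower. A fit of slide 2 alone gave 196 calls, and slide as a random block (correlation 0.42) gave 221. Counts of calls rested on single arrays as well. They were 507 without VSG159 replicate 1, 194 without VSG159 replicate 2, 267 without DEX replicate 1 and 209 without DEX replicate 3, and 1574 without VSG159 replicate 3, the array that stands apart. Fits of the 6 arrays alone, and of slide and array position together, gave 0 limma calls each, with 3341 and 811 genes at an unadjusted p under 0.05.

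**Figure D1:**
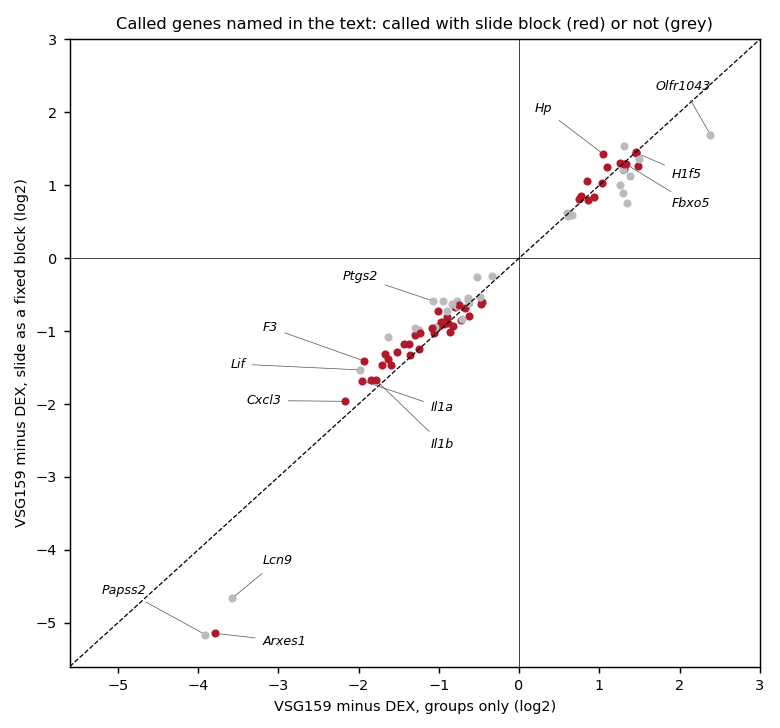
Differences between VSG159 and DEX (log2) of the genes that the text names as called, from the groups alone (x axis) and with slide as a fixed block (y axis). Red points were called with the block and grey points were not, and the dashed line marks equal values. Papss2, Arxes1 and Lcn9 stand alone at the lower left.

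Proinflammatory cytokine genes were lower with VSG159. Of 20 measured members, 8 fell and 0 rose, with a median difference of -0.52 beside -0.08 over all genes. With slide as a block 6 fell (median -0.34), and 6 with each array scaled to its median. The background for this and each later list was 4.11% of all genes lower and 1.44% higher. With the block it was 1.97% lower and 1.44% higher. Il1b, which encodes interleukin 1 beta, had levels of 4.22, 3.60 and 4.07 on the VSG159 arrays, against 5.84, 5.58 and 5.81 on the DEX arrays. The 3 VSG159 arrays lay below the 3 DEX arrays with a gap of more than 1 log2 unit. The difference was -1.78 (SE 0.15, adjusted p = 0.000328), a 3.44-fold lower level, and -1.68 (adjusted p = 0.015) with slide as a block. A second probe of Il1b well above background on all 6 arrays gave -2.10 (adjusted p = 0.000417). In vehicle cells Il1b was at 7.80 ± 0.11 (SD, n = 3), so both groups lay below vehicle, VSG159 minus vehicle being -3.84 and DEX minus vehicle -2.06.

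Il1a, the interleukin 1 alpha gene, had levels of 0.27, -0.25 and 0.43 on the VSG159 arrays, against 2.29, 1.82 and 2.22 on the DEX arrays, without overlap. VSG159 minus DEX was -1.96 (SE 0.18, adjusted p = 0.000393), and -1.68 (adjusted p = 0.0153) with the slide block. Il6, a driver of the acute-phase response, stood at 3.43, 2.99 and 3.52 on the VSG159 arrays, against 4.63, 4.61 and 4.82 on the DEX arrays, again without overlap, with a difference of -1.38 (SE 0.12, adjusted p = 0.000393). Its second probe gave -1.39 (adjusted p = 0.00436). Csf2, which encodes GM-CSF, a growth factor of granulocytes and macrophages, was at -0.80, -1.06 and -0.57 on the VSG159 arrays, against 0.80, 0.54 and 0.81 on the DEX arrays. All VSG159 arrays were below 0 and all DEX arrays above it, and the difference was -1.52 (SE 0.15, adjusted p = 0.00097). Il33, an alarmin of the interleukin 1 family, had levels of 1.27, 0.52 and 1.15 on the VSG159 arrays, against 3.04, 2.78 and 2.64 on the DEX arrays and differed by -1.84 (SE 0.26, adjusted p = 0.00338), a 3.58-fold lower level. Another Il33 probe, well above background on 2 VSG159 and 3 DEX arrays, gave -0.96 (adjusted p = 0.235). Vehicle cells had Il33 at 6.63 ± 0.16 (SD, n = 3), far above both groups. Il19, a cytokine of the interleukin 10 family, differed by -1.59 (SE 0.21, adjusted p = 0.00252). Il1b and these 5 genes kept their calls when any 1 of the 6 arrays was left out and with slide as a block.

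The promoters of Il1a and Il1b are printed because both interleukin 1 genes were called, and those of H1f5 and Fbxo5 further on because they are a histone gene and a cell cycle gene that kept their calls with the block and without any 1 array. The 4 were chosen after their values were seen. Each is 300 bases around the gene's start, from RefSeq, assembly GRCm38.p6, 5′ to 3′. Capitals mark matches on either strand to 6 short motifs: GAAANNGAA (interferon response), TTTCCCGC (E2F), TGTTCT (part of a glucocorticoid receptor site), GGGANTTCC (NF-kB), TGACTCA (AP-1) and CCAAT. Il1a lies at chr2:129309923-129310222 and Il1b at chr2:129371090-129371389, both on the minus strand.
Il1a: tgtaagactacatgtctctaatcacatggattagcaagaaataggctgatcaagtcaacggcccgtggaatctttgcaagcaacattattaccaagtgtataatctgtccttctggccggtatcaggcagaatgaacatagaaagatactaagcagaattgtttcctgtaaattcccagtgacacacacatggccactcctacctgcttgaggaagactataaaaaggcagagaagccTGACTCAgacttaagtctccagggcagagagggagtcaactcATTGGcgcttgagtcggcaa
Il1b: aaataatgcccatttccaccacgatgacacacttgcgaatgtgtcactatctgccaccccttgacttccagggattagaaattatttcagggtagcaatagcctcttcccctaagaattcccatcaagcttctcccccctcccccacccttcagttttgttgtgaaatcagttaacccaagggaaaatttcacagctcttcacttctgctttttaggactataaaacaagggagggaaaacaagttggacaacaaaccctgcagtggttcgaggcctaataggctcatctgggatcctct
Il1a held 1 TGACTCA and 1 CCAAT, and Il1b held no match in this window. Among 32851 promoters of the same length, 37.4% held CCAAT, 19% TGTTCT, 8.56% GAAANNGAA, 5.2% TGACTCA, 1.68% GGGANTTCC and 1.07% TTTCCCGC. A match describes letters and not a bound site.

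Lif and Csf3 were the other called members. Lif, which encodes leukaemia inhibitory factor, had levels of -4.11, -5.28 and -4.02 on the VSG159 arrays, against -2.41, -2.58 and -2.48 on the DEX arrays, was well above background on 2 of the 3 VSG159 arrays and differed by -1.98 (SE 0.30, adjusted p = 0.00518). With the slide block its difference was -1.53 (adjusted p = 0.0583) and it was not called. Csf3, which encodes the granulocyte factor G-CSF, differed by -0.64 (SE 0.13, adjusted p = 0.0182) and was no longer called without VSG159 replicate 1 or 2 or DEX replicate 1 or 3 (adjusted p 0.0224 to 0.0857 over the 6 fits). Tnf, the tumour necrosis factor gene, had levels of 4.47, 4.40 and 4.51 on the VSG159 arrays, against 4.68, 4.81 and 4.87 on the DEX arrays. The groups did not overlap, but the difference of -0.33 (SE 0.12) was not called (adjusted p = 0.122). Without VSG159 replicate 3, 13 members of the list were called lower, and with any other array left out 7 or 8.

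**Figure D2:**
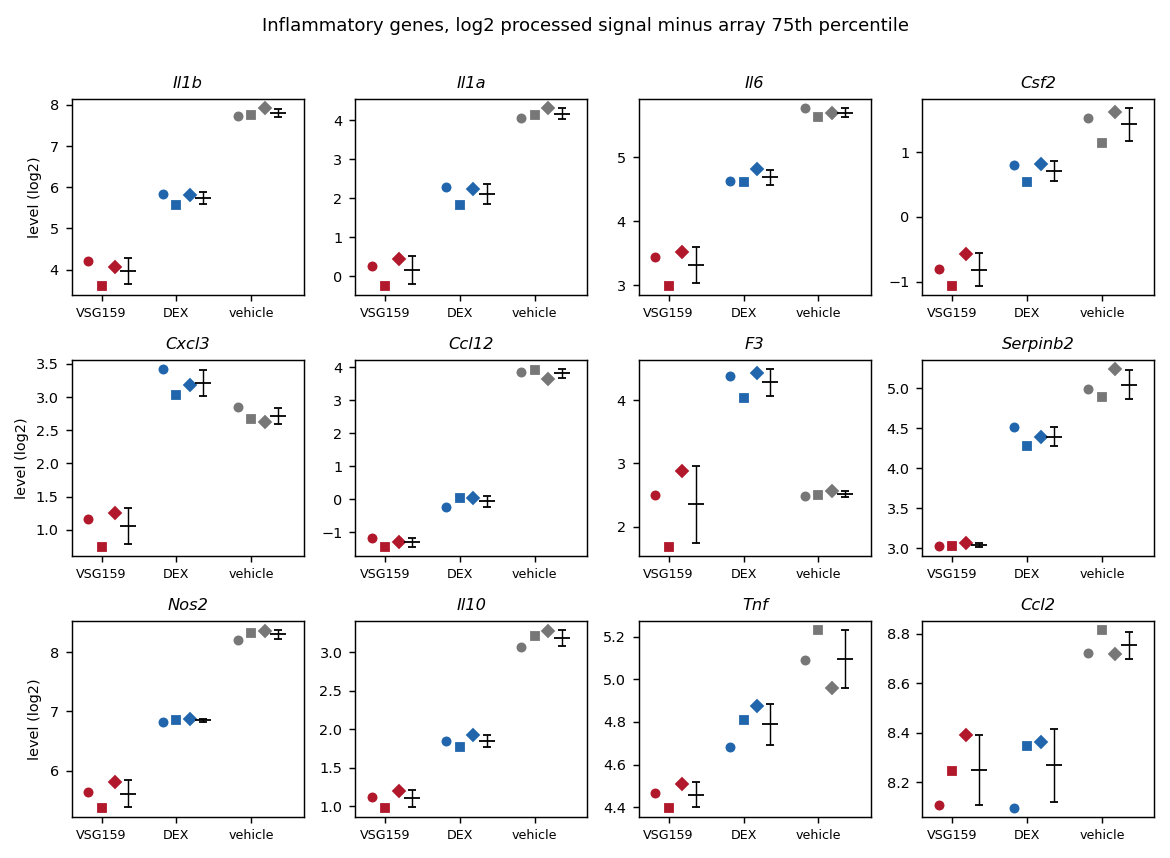
Levels of 12 inflammatory genes (log2 signal minus the array's 75th percentile) on each VSG159, DEX and vehicle array, with circle, square and diamond for replicates 1, 2 and 3 and the mean with SD in black. Il1b, Il1a, Il6, Csf2, Cxcl3, Ccl12, F3, Serpinb2, Nos2, Il10 and Tnf, which was not called, lay lower on every VSG159 array than on any DEX array. So did 3768 of 19499 tested genes. The Ccl2 levels of the groups overlapped.

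Chemokines attract leukocytes, and several of their genes fell. Cxcl3, which encodes a neutrophil attractant, had levels of 1.17, 0.74 and 1.26 on the VSG159 arrays, against 3.43, 3.04 and 3.19 on the DEX arrays. The DEX arrays were more than 1.5 log2 units above the VSG159 arrays, the difference was -2.16 (SE 0.17, adjusted p = 0.000328), and it was -1.96 (adjusted p = 0.015) with the slide block. This is a 4.48-fold lower level. Vehicle cells had 2.71 ± 0.12 (SD, n = 3), a level between the groups: VSG159 minus vehicle was -1.66 and DEX minus vehicle was 0.50. Of 10 measured CXC chemokine genes 4 fell (4.11% over all genes) and 0 rose, with a median of -0.38, and 1 fell with each array scaled to its median. Besides Cxcl3 these were Cxcl2 (-0.77, SE 0.12, adjusted p = 0.00674), the interferon-induced T cell attractant Cxcl10 (-1.25, SE 0.21, adjusted p = 0.00864) and the platelet factor gene Pf4 (-0.64, SE 0.17, adjusted p = 0.0473). With the slide block the call of Cxcl3 alone remained, and that of Pf4 was lost whichever array was left out (adjusted p 0.0546 to 0.148). Cxcl1 was well above background on 1 VSG159 array and 2 DEX arrays and was not called.

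Of 10 measured CC chemokine genes 3 fell (4.11% over all genes), and the same 3 fell with the slide block, but 1 with each array scaled to its median. Ccl12, which encodes a monocyte attractant, was at -1.17, -1.45 and -1.31 on the VSG159 arrays, against -0.25, 0.05 and 0.02 on the DEX arrays. Those groups did not overlap, and the difference was -1.25 (SE 0.12, adjusted p = 0.000615). Vehicle cells were at 3.81 ± 0.14 (SD, n = 3). Ccl7, another monocyte attractant, had 4.54, 4.48 and 4.61 on the VSG159 arrays, against 5.34, 5.61 and 5.49 on the DEX arrays and differed by -0.94 (SE 0.09, adjusted p = 0.000615). Ccl6 differed by -0.86 (SE 0.15, adjusted p = 0.0111). Each of these calls held without any 1 array. Ccl2, the main monocyte attractant of the family, had overlapping levels of 8.11, 8.25 and 8.39 on the VSG159 arrays, against 8.10, 8.35 and 8.36 on the DEX arrays, a difference of -0.02 (adjusted p = 0.941).

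The genes of tissue factor, which starts clotting, and of the plasminogen system, which dissolves clots, were lower with VSG159 in 5 of 10 measured cases (4.11% over all genes), with 0 higher and a median of -0.80. With slide as a block 3 fell, and with each array scaled to its median 1. F3, the tissue factor gene, had levels of 2.51, 1.68 and 2.87 on the VSG159 arrays, against 4.38, 4.04 and 4.43 on the DEX arrays. VSG159 replicate 2 was the lowest array, and the groups did not overlap. The difference was -1.93 (SE 0.24, adjusted p = 0.00205), a 3.81-fold lower level, and -1.41 (adjusted p = 0.0294) with the slide block. In vehicle cells F3 was at 2.51 ± 0.05 (SD, n = 3), where VSG159 minus vehicle was -0.16 (adjusted p = 0.622, not called) and DEX minus vehicle was 1.77 (adjusted p = 9.54e-05). Serpinb2, which encodes plasminogen activator inhibitor 2, had levels of 3.02, 3.03 and 3.07 on the VSG159 arrays, against 4.52, 4.27 and 4.39 on the DEX arrays, with a spread of 0.02 log2 units (SD) among the VSG159 arrays. It differed by -1.35 (SE 0.12, adjusted p = 0.000328), and by -1.33 (adjusted p = 0.015) with the slide block. Procr, the endothelial protein C receptor gene, had means of 3.39 ± 0.17 with VSG159 and 4.39 ± 0.11 with DEX (SD, n = 3 each), a 1.99-fold lower level (adjusted p = 0.00128), and was called with the block. Plau, which encodes urokinase (-0.89, SE 0.18, adjusted p = 0.0176), lost its call with the block and without VSG159 replicate 1 or 2 or DEX replicate 1 or 3 (adjusted p 0.016 to 0.0789 over the fits without 1 array). The count of the list was 3 without VSG159 replicate 2 or DEX replicate 3.

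Nos2, the inducible nitric oxide synthase gene, had levels of 5.65, 5.37 and 5.82 on the VSG159 arrays, against 6.81, 6.86 and 6.87 on the DEX arrays. The DEX arrays differed among themselves by less than 0.1, all VSG159 arrays were lower, and the difference was -1.24 (SE 0.12, adjusted p = 0.000727), and -1.03 (adjusted p = 0.0208) with the slide block. Vehicle cells were at 8.30 ± 0.08 (SD, n = 3). Of 15 measured enzymes of nitric oxide, arginine and polyamine metabolism, 6 fell and 1 rose (4.11% and 1.44% over all genes), with a median of -0.45. With the block 3 fell and 0 rose, and with each array scaled to its median 0 were called. The polyamine-degrading enzyme gene Sat1 fell (-0.73, SE 0.12, adjusted p = 0.00855), as did Gch1, whose product makes the cofactor of Nos2 (-0.48, SE 0.09, adjusted p = 0.0169, adjusted p 0.0264 to 0.0652 without 1 array), and Srm, which encodes spermidine synthase, rose (0.60, SE 0.12, adjusted p = 0.0163, adjusted p 0.0273 to 0.0787 without 1 array). Gch1 and Srm were not called without VSG159 replicate 2, DEX replicate 1 or DEX replicate 3, and Srm not with the slide block. The falls of the list numbered 2 without VSG159 replicate 2 or DEX replicate 3 and 3 without DEX replicate 1. Ptgs2, the cyclooxygenase-2 gene, had 5.12, 4.85 and 5.70 on the VSG159 arrays, against 6.43, 6.19 and 6.26 on the DEX arrays, without overlap. It differed by -1.07 (SE 0.21, adjusted p = 0.0184), but VSG159 replicate 3 was its highest VSG159 array, the block gave -0.59 (adjusted p = 0.16), and the call was lost without VSG159 replicate 1 or 2 or DEX replicate 1 or 3 (adjusted p 0.005 to 0.0844). Acod1, whose enzyme makes itaconate, had overlapping groups and a difference of -0.02 (adjusted p = 0.933). Arg1 was not well above background in either group.

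Interferon-induced antiviral genes fell in part with VSG159. Of 40 measured members 13 fell and 1 rose (4.11% and 1.44% over all genes), with a median of -0.33. With slide as a block 1 fell (1.97% over all genes), 0 rose and the median was -0.19. The falls numbered 6 after quantile normalization, 5 with normexp, 4 in the values the authors deposited and 0 with each array scaled to its median. The falls ranged from 0.33 for Isg15, a ubiquitin-like modifier, to 1.05 for Rsad2, which encodes viperin. Bst2, the tetherin gene, had levels of 5.77, 5.93 and 5.84 on the VSG159 arrays, against 6.52, 6.43 and 6.62 on the DEX arrays, without overlap, and differed by -0.68 (SE 0.10, adjusted p = 0.00415) and by -0.69 (adjusted p = 0.0345) with the block. Ifit3, an inhibitor of viral RNA translation, differed by -0.79 (SE 0.12, adjusted p = 0.00536) and kept that call without any 1 array but not with the block (-0.63, adjusted p = 0.0563). Rsad2 itself differed by -1.05 (SE 0.27, adjusted p = 0.0484), which among the fits without 1 array was called only in that without VSG159 replicate 1 (adjusted p 0.038 to 0.169). Its other probe, well above background on all 6 arrays, gave -0.48 (adjusted p = 0.384). Its levels were 1.86, 0.78 and 1.48 on the VSG159 arrays, against 2.24, 2.34 and 2.69 on the DEX arrays. Vehicle cells had 7.77 ± 0.08 (SD, n = 3), so both compounds had it lower than vehicle by more than 5 log2 units. Ifit1 differed by -0.41 (adjusted p = 0.0884), not called. The 13 falls became 2 without VSG159 replicate 2 or DEX replicate 3, 4 without VSG159 replicate 1 or DEX replicate 1, 5 without DEX replicate 2 and 16 without VSG159 replicate 3.

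Some genes that restrain inflammation fell as well. Il10, the gene of the anti-inflammatory cytokine interleukin 10, had levels of 1.12, 0.98 and 1.20 on the VSG159 arrays, against 1.85, 1.76 and 1.92 on the DEX arrays, without overlap, and differed by -0.74 (SE 0.10, adjusted p = 0.00286) and by -0.65 (adjusted p = 0.037) with the block. Vehicle cells had 3.19 ± 0.10 (SD, n = 3). Among 15 measured anti-inflammatory mediators 4 fell, beside 4.11% of all genes (1 without VSG159 replicate 2 or DEX replicate 1, 2 without DEX replicate 3). Among 13 MAPK phosphatases, which switch off stress kinases, 6 fell. The phosphatase count was 2 with the block and 3 without VSG159 replicate 2, DEX replicate 1 or DEX replicate 3. With each array scaled to its median 0 members of either list were called. Dusp14 (-0.89, SE 0.10, adjusted p = 0.00125) was called in each fit without 1 array and with the block, while Dusp5 (-1.29, SE 0.21, adjusted p = 0.00751) was not called with the block (-0.96, adjusted p = 0.073). The other Dusp5 probe, well above background on all 6 arrays, gave -0.23 (adjusted p = 0.623). Dusp1, a glucocorticoid-induced phosphatase gene, had 6.51, 6.39 and 6.21 on the VSG159 arrays, against 6.92, 6.86 and 7.21 on the DEX arrays. All DEX arrays were above all VSG159 arrays, and the difference was -0.62 (SE 0.13, adjusted p = 0.0237), and -0.79 (adjusted p = 0.0438) with the block, though the call was lost without VSG159 replicate 2, DEX replicate 1 or DEX replicate 3 (adjusted p 0.0325 to 0.103). Zfp36, whose protein speeds the decay of inflammatory mRNAs, differed by -0.71 (SE 0.15, adjusted p = 0.0257), with calls lost in the same 3 fits (adjusted p 0.0413 to 0.106) and with the block (-0.83, adjusted p = 0.0615). Neither gene was called above vehicle with either compound. For Dusp1, DEX minus vehicle was 0.12 (adjusted p = 0.469) and VSG159 minus vehicle was -0.50 (adjusted p = 0.00877). For Zfp36, DEX minus vehicle was -0.68 and VSG159 minus vehicle was -1.39. Its relative Zfp36l2 differed by -1.08 (SE 0.14, adjusted p = 0.00243), called without any 1 array and with the block.

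Cish, a suppressor of cytokine signalling, was lower by 1.63 log2 units (SE 0.28, adjusted p = 0.0108), no longer called without DEX replicate 1 (adjusted p 0.00504 to 0.0505 over the 6 fits) and with the block (-1.08, adjusted p = 0.0939). Cd274, which encodes the checkpoint ligand PD-L1, had levels of 3.91, 3.82 and 3.91 on the VSG159 arrays, against 5.05, 4.84 and 4.94 on the DEX arrays. Its groups did not overlap, and the difference was -1.06 (SE 0.11, adjusted p = 0.00097) and -1.03 (adjusted p = 0.0217) with the block. Cd86, a costimulatory ligand for T cells, differed by -0.97 (SE 0.10, adjusted p = 0.00097) and likewise kept its call with the block and without any 1 array. For Cd86, VSG159 minus vehicle was -1.15 and DEX minus vehicle was -0.18 (adjusted p = 0.174, not called). Of 13 costimulatory and checkpoint genes 4 fell (4.11% over all genes) and 0 rose. The falls numbered 2 with the block, 2 without DEX replicate 3 and 0 with each array scaled to its median. Tnfrsf9, the gene of the costimulatory receptor 4-1BB, differed by -1.68 (SE 0.21, adjusted p = 0.00196), called with the block and without any 1 array.

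Of 31 measured genes known to be induced by glucocorticoids 1 rose and 7 fell, beside 1.44% higher and 4.11% lower over all genes. With the block these counts were 1 and 1, and with each array scaled to its median 0 and 0. The median was -0.08 beside -0.08 over all genes. Against vehicle, the list median was 0.12 with DEX and -0.02 with VSG159, beside 0.03 and -0.06 over all genes. The genes given below are Hp and genes that were not called, so they do not stand for the 7 falls. The member that rose was Hp, the gene of the haemoglobin-binding acute-phase protein haptoglobin, with levels of 4.19, 4.36 and 4.85 on the VSG159 arrays, against 3.55, 3.41 and 3.30 on the DEX arrays. VSG159 replicate 3 was the highest of the 6 arrays and the groups did not overlap. The difference was 1.05 (SE 0.19, adjusted p = 0.0128), a 2.07-fold higher level, and 1.43 (adjusted p = 0.0208) with the block, and the call was lost without DEX replicate 3 (adjusted p 0.0166 to 0.0612 over the 6 fits). Both compounds stood far above vehicle, which had -2.52 ± 0.21 (SD, n = 3), VSG159 by 6.99 and DEX by 5.94 log2 units. Fkbp5, which encodes a chaperone of the receptor, had overlapping levels of 4.59, 4.54 and 4.46 on the VSG159 arrays, against 4.87, 4.44 and 4.68 on the DEX arrays, a difference of -0.13 (SE 0.13, adjusted p = 0.623). Tsc22d3, which encodes GILZ, differed by -0.28 (SE 0.11, adjusted p = 0.159), Klf9 by -0.07 (SE 0.11, adjusted p = 0.755) and Per1 by -0.21 (SE 0.18, adjusted p = 0.542). The receptor gene itself, Nr3c1, was at 2.41, 2.41 and 2.69 on the VSG159 arrays, against 2.78, 2.64 and 2.55 on the DEX arrays, overlapping, with an adjusted p of 0.519. Other probes of Nr3c1 (0.37, adjusted p = 0.12) and Fkbp5 (0.40, adjusted p = 0.366) had the opposite sign. Those of Tsc22d3 (-0.16, adjusted p = 0.489) and Klf9 (-0.33, adjusted p = 0.361) kept the sign. These other probes were well above background on all 6 arrays, and none was called. Without VSG159 replicate 2, DEX replicate 1 or DEX replicate 3, 1 member of the list was called lower.

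**Figure D3:**
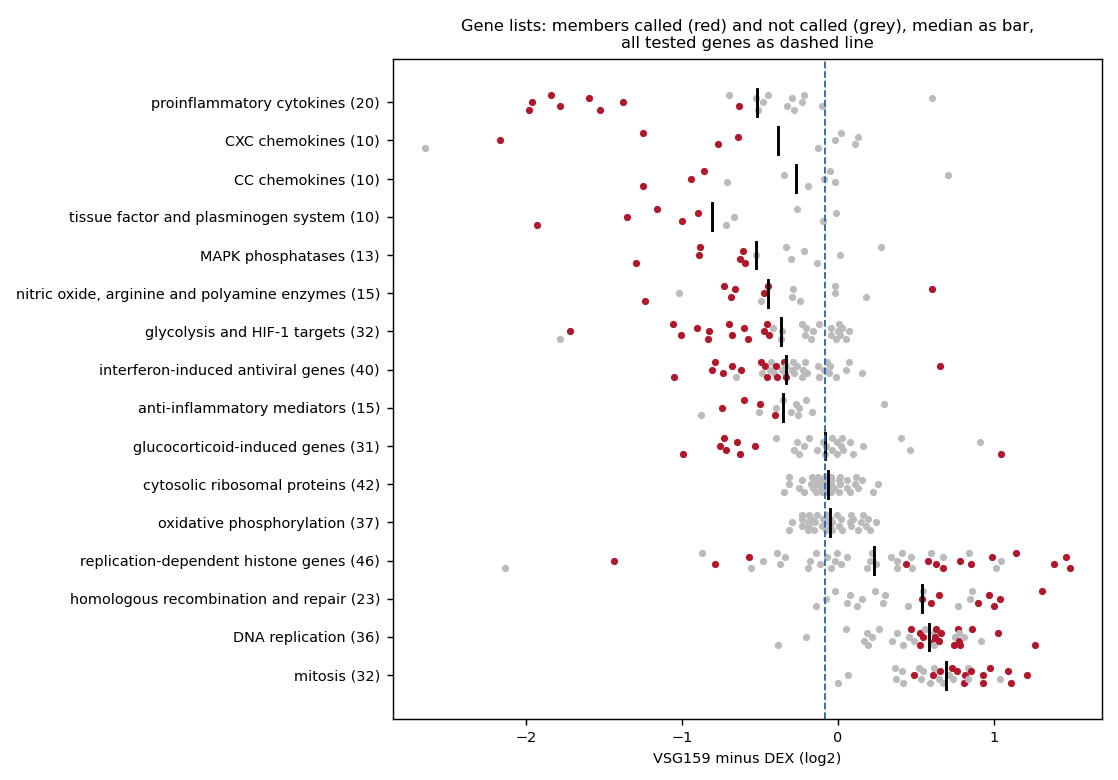
Differences between VSG159 and DEX (log2) for the measured members of 16 gene lists, with the number measured in parentheses. Red points were called, grey points were not, the black bar is the list median and the dashed line is the median of all tested genes, -0.08. Cytokine and clotting-system members lie to the left, mitosis and replication members to the right, and ribosomal protein and oxidative phosphorylation members close to the line.

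Many cell cycle genes were higher with VSG159. Of 36 measured DNA replication genes 16 rose and 0 fell, with a median of 0.59 (8 rose with the slide block, median 0.59). Of 32 mitosis genes 14 rose and 0 fell (5 with the block), and their median was 0.69 (0.81 with the block). Of 23 genes of homologous recombination and repair 8 rose and 0 fell (2 with the block), with a median of 0.54. The background was 1.44% of genes higher, with or without the block. Fbxo5, an inhibitor of the anaphase-promoting complex that keeps cyclins in place, had levels of 0.03, 0.28 and 0.09 on the VSG159 arrays, against -1.09, -1.20 and -1.31 on the DEX arrays. All VSG159 arrays were above 0 and all DEX arrays below 0. The difference was 1.33 (SE 0.11, adjusted p = 0.000328), and 1.29 (adjusted p = 0.015) with the block. Vehicle cells had -3.99 ± 0.07 (SD, n = 3), below both groups.

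Mcm10, which recruits DNA polymerase at origins, stood at 0.89, 1.18 and 1.10 on the VSG159 arrays, against -0.36, -0.02 and -0.23 on the DEX arrays, without overlap. Its difference was 1.26 (SE 0.17, adjusted p = 0.00294), with a second probe at 0.83 (adjusted p = 0.0179). Exo1, an exonuclease of mismatch repair and recombination, had 0.02, 0.57 and 0.17 on the VSG159 arrays, against -0.92, -1.03 and -1.21 on the DEX arrays and differed by 1.31 (SE 0.20, adjusted p = 0.00537). Pole, the catalytic subunit gene of DNA polymerase epsilon, differed by 1.03 (SE 0.14, adjusted p = 0.00294), with 1 other probe at 1.08 (adjusted p = 0.0633) and 1 that was not well above background on any of the 6 arrays. The helicase gene Mcm7 differed by 0.74 (SE 0.11, adjusted p = 0.00514), Mcm5 by 0.77 (SE 0.12, adjusted p = 0.005) and the origin-licensing gene Cdc6 by 0.86 (SE 0.13, adjusted p = 0.00473). In mitosis, Plk1, a kinase of mitotic entry, had 1.71, 1.98 and 1.72 on the VSG159 arrays, against 0.88, 0.94 and 0.81 on the DEX arrays, without overlap, and differed by 0.93 (SE 0.13, adjusted p = 0.00323). Prc1, a protein that bundles spindle microtubules, differed by 1.09 (SE 0.15, adjusted p = 0.00338). Each of these 8 genes and Fbxo5 was called without any 1 array and with the slide block.

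Other cycle genes rested on fewer arrays. Aurka, a spindle kinase gene, had 1.94, 2.24 and 2.41 on the VSG159 arrays, against 1.42, 1.35 and 1.25 on the DEX arrays and differed by 0.85 (SE 0.15, adjusted p = 0.0125) and by 1.06 (adjusted p = 0.0294) with the block, but was not called without VSG159 replicate 2 or DEX replicate 3 (adjusted p 0.0127 to 0.0608). Tk1, which encodes thymidine kinase, had 2.99, 3.05 and 2.93 on the VSG159 arrays, against 2.37, 2.35 and 2.28 on the DEX arrays, with tight groups that did not overlap. It differed by 0.66 (SE 0.12, adjusted p = 0.0141), lost its call in the same 2 fits (adjusted p 0.0193 to 0.0683) and was not called with the block (0.60, adjusted p = 0.0769). Mki67, which encodes the proliferation antigen Ki-67, differed by 0.61 (SE 0.16, adjusted p = 0.0457) and lost its call whichever array was left out (adjusted p 0.0575 to 0.162). The 16 replication calls became 5 without VSG159 replicate 2 or DEX replicate 3 and 7 without DEX replicate 1. The 14 mitosis calls became 2 without VSG159 replicate 2 or DEX replicate 3, 4 without DEX replicate 1 and 7 without DEX replicate 2. The 8 recombination calls became 2 without VSG159 replicate 2 or DEX replicate 3, 4 without DEX replicate 1 and 5 without VSG159 replicate 1. Leaving out VSG159 replicate 3 gave 14, 10 and 7. With each array scaled to its median, 0 members of the 3 lists were called.

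**Figure D4:**
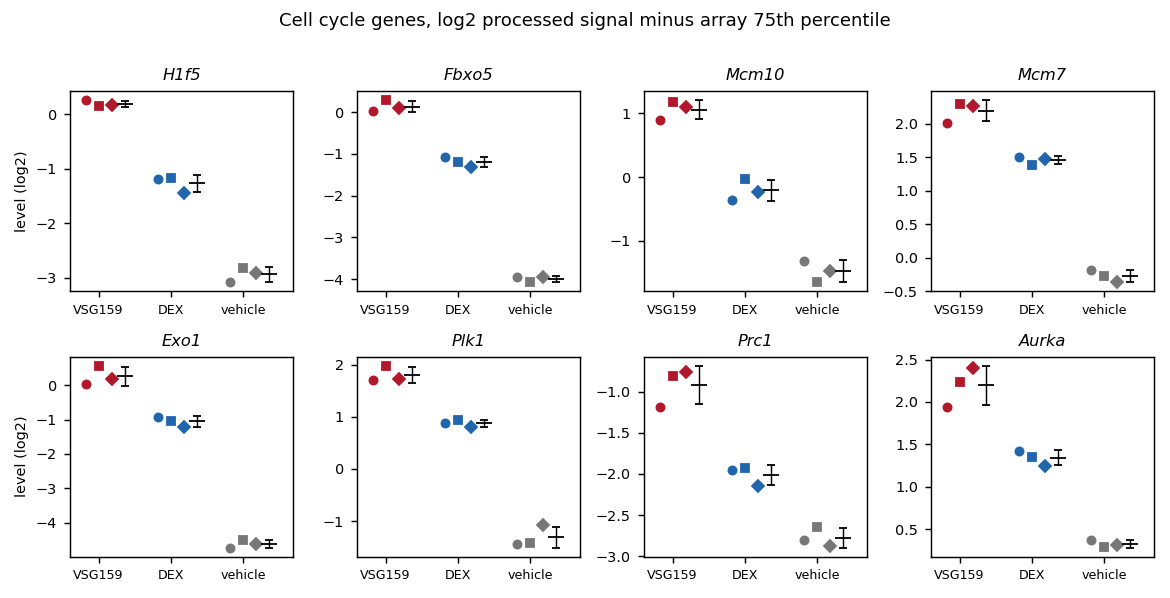
Levels of 8 cell cycle genes (log2 signal minus the array's 75th percentile) on each VSG159, DEX and vehicle array, with circle, square and diamond for replicates 1, 2 and 3 and the mean with SD in black. For each gene the VSG159 arrays lay above the DEX arrays, as they did for 1453 of 19499 tested genes. The vehicle arrays lay below both groups for each of the 8 genes.

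Histone genes were among the largest rises and were then counted as a group, chosen after their values were seen. Of 46 measured histone genes 11 rose and 3 fell, beside 1.44% higher and 4.11% lower over all genes. Their median was 0.23 (0.44 with the slide block, where 8 rose and 1 fell). H1f5, named Hist1h1b on the array, which encodes a linker histone made in S phase, had levels of 0.25, 0.14 and 0.17 on the VSG159 arrays, against -1.18, -1.18 and -1.45 on the DEX arrays. The groups did not overlap, and the difference was 1.46 (SE 0.14, adjusted p = 0.00066) and 1.44 (adjusted p = 0.019) with the block. H2ac4, named Hist1h2ab, had 2.67, 2.71 and 2.34 on the VSG159 arrays, against 0.87, 1.31 and 1.06 on the DEX arrays and differed by 1.49 (SE 0.17, adjusted p = 0.00125). Hist1h1c, another linker histone gene, was lower: 0.01, -0.49 and 0.15 on the VSG159 arrays, against 1.41, 1.29 and 1.28 on the DEX arrays, a difference of -1.43 (SE 0.20, adjusted p = 0.00323). These 3 calls held with the block and without any 1 array, but the other Hist1h1c probe, well above background on all 6 arrays, gave -0.23 (adjusted p = 0.501). With each array scaled to its median, 2 histone genes rose and 0 fell. Core histone genes have near-identical copies, so a probe of H2ac4 may also read its neighbours. Without VSG159 replicate 1 or 2 the higher count was 7 or 5, and without DEX replicate 1 or 3 it was 6.

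The promoter of H1f5 lies at chr13:21780576-21780875 and that of Fbxo5 at chr10:5805416-5805715, both on the minus strand, with capitals for the same motifs.
H1f5: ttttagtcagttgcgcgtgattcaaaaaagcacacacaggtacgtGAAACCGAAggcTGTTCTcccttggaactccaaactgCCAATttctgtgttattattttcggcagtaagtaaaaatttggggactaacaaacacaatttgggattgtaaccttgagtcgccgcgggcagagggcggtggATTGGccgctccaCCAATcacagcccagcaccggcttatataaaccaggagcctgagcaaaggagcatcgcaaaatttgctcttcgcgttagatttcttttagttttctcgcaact
Fbxo5: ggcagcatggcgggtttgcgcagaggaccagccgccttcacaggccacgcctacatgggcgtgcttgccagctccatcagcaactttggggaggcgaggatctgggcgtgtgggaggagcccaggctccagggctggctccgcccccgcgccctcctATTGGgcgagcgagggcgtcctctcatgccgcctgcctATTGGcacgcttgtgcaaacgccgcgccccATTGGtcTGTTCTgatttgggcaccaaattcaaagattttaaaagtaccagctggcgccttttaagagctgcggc
H1f5 held 3 CCAAT, 1 TGTTCT and 1 GAAANNGAA, and Fbxo5 held 3 CCAAT and 1 TGTTCT.

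Genes of glycolysis and targets of HIF-1, the oxygen-sensing factor that LPS also activates in macrophages, were in part lower with VSG159. Of 32 measured, 13 fell (4.11% over all genes) and 0 rose, with a median of -0.36 (4 fell with the block, median -0.29). The falls numbered 8 after quantile normalization, 6 with normexp, 5 in the values the authors deposited and 1 with each array scaled to its median. P4ha2, a collagen prolyl hydroxylase gene, had levels of -1.82, -2.50 and -1.78 on the VSG159 arrays, against -0.45, -0.51 and -0.24 on the DEX arrays. No array overlapped, and the difference was -1.64 (SE 0.20, adjusted p = 0.00175). Adm, the gene of the vasodilating peptide adrenomedullin, was at -1.22, -1.82 and -1.14 on the VSG159 arrays, against 0.24, 0.32 and 0.40 on the DEX arrays and differed by -1.71 (SE 0.18, adjusted p = 0.000948). Slc2a1, the glucose transporter gene, differed by -0.83 (SE 0.12, adjusted p = 0.00396), Ndrg1 by -0.90 (SE 0.11, adjusted p = 0.00175) and Ero1a, named Ero1l on the array, by -1.01 (SE 0.13, adjusted p = 0.00244). These 5 genes were called with the block and without any 1 array. Vegfa, which drives vessel growth, differed by -0.83 (SE 0.12, adjusted p = 0.0048) and was not called with the block (-0.63, adjusted p = 0.0539). Of its other probes well above background on all 6 arrays, 1 gave -0.63 (adjusted p = 0.00846) and 1 gave -0.30 (adjusted p = 0.237). The 13 falls became 7 without VSG159 replicate 2 or DEX replicate 3, and 8 without VSG159 replicate 1 or DEX replicate 1.

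Growth-arrest genes and early-response factors fell in part. Ccng2, a cyclin gene expressed in resting cells, differed by -1.29 (SE 0.16, adjusted p = 0.00196) and by -1.06 (adjusted p = 0.0319) with the block. It was 1 of 4 falls among 14 measured growth-arrest genes (median -0.29), beside 4.11% of all genes lower. The others were Btg1 (-0.63), Gadd45a (-0.78) and Cdkn1a (-0.53), which were not called with the block. The other Cdkn1a probe gave 0.08 (adjusted p = 0.863). With each array scaled to its median 0 of these 4 were called. Without VSG159 replicate 2, DEX replicate 1 or DEX replicate 3, 1 gene of this list fell, and without VSG159 replicate 1, 2 fell. Tob2, an antiproliferative gene, was higher with VSG159 at -0.31, -0.65 and -0.49 on the VSG159 arrays, against -1.75, -1.63 and -1.99 on the DEX arrays, a difference of 1.30 (SE 0.18, adjusted p = 0.00298), called with the block and without any 1 array. A second Tob2 probe, well above background on all 6 arrays, gave 0.01 (adjusted p = 0.981), so the probes disagree. Of 24 early-response factors 6 fell (4.11% over all genes), while 3 fell with the block (2 of them among these 6), 3 after quantile normalization and 0 with each array scaled to its median. The 6 held Ier3 (-0.94, SE 0.08, adjusted p = 0.000328) and Atf3 (-0.80, SE 0.11, adjusted p = 0.00369), which were called with the block and without any 1 array. The count of 6 was 2 without VSG159 replicate 2, DEX replicate 1 or DEX replicate 3 and 3 without VSG159 replicate 1. Myc differed by -0.95 (SE 0.24, adjusted p = 0.0447) and was called, among the fits without 1 array, in that without VSG159 replicate 3 alone (adjusted p 0.0274 to 0.135). With the block it gave -0.59 (adjusted p = 0.278).

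Several groups gave 0 limma calls. Cytosolic ribosomal protein genes (42 measured, median -0.06, 5 at an unadjusted p under 0.05) and oxidative phosphorylation genes (37 measured, median -0.05, 4 at that p) lay close to the median of all genes. Sterol and fatty acid synthesis genes (31 measured, median 0.07) had 7 members at that p, inflammasome and caspase genes (18 measured, median 0.04) 1, and efferocytosis genes (15 measured, median -0.13) 3. Over all genes, 4306 of 19499 had an unadjusted p under 0.05. A missed threshold does not show that the compounds acted alike on these genes.

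The 3 genes that the naming rule put first among the falls lay in a patch near 1 edge of the array surface. Papss2, which encodes an enzyme of sulfate donor synthesis, had levels of -3.56, -7.05 and -7.19 on the VSG159 arrays, against -0.68, -3.04 and -2.36 on the DEX arrays. Arxes1 had -4.08, -6.25 and -7.19 on the VSG159 arrays, against -1.52, -2.37 and -2.26 on the DEX arrays. Lcn9, a lipocalin gene, had -4.11, -7.05 and -7.21 on the VSG159 arrays, against -2.32, -2.65 and -2.67 on the DEX arrays. For each of the 3 genes the groups did not overlap, and the spot was well above background on 3 DEX arrays and 1 VSG159 array. Since 2 of the 3 VSG159 values were not well above background, the size of each difference and its rank are not settled. The fitted values were -3.91 (SE 0.97, adjusted p = 0.0421), -3.79 (SE 0.73, adjusted p = 0.0164) and -3.57 (SE 0.89, adjusted p = 0.0424). Over the 1024 noncontrol spots of the patch, whose bounds were set after the values were seen, the median level was -4.32, -5.00 and -4.86 on VSG159 arrays 1 to 3, against -1.82, -3.69 and -4.18 on DEX arrays 1 to 3. All other spots had medians of -4.45, -4.81 and -4.84 on the VSG159 arrays and -4.79, -4.43 and -4.66 on the DEX arrays. On DEX replicate 1, 69.0% of the spots in the patch passed as well above background, against 46.6% elsewhere. The part of the patch in these falls was not tested.

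Of 414 tested genes with their probe in the patch, 18 were called lower (4.35%, beside 4.11% over all genes) and 3 higher (beside 1.44% over all genes). The share called lower at any size was thus close to that of all genes, but large falls were more frequent in the patch. At least 2-fold lower were 14 of the 414 patch genes, beside 90 of all 19499 tested genes, a count that includes these 14. Without these spots, an alternative chosen after the data were seen, 1065 genes were called, 280 higher and 785 lower, and 137 reached 2-fold. The 3 calls rested on single arrays: Papss2 was not called without VSG159 replicate 2 or 3 or DEX replicate 1 or 3 (adjusted p 0.012 to 0.146), Arxes1 not without VSG159 replicate 2 or DEX replicate 1 or 3 (adjusted p 0.00526 to 0.0768) and Lcn9 not without VSG159 replicate 2 or 3 or any 1 DEX array (adjusted p 0.0173 to 0.146). With the slide block Arxes1 was called and Papss2 and Lcn9 were not. No other gene named here as lower had its spot in the patch.

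**Figure D5:**
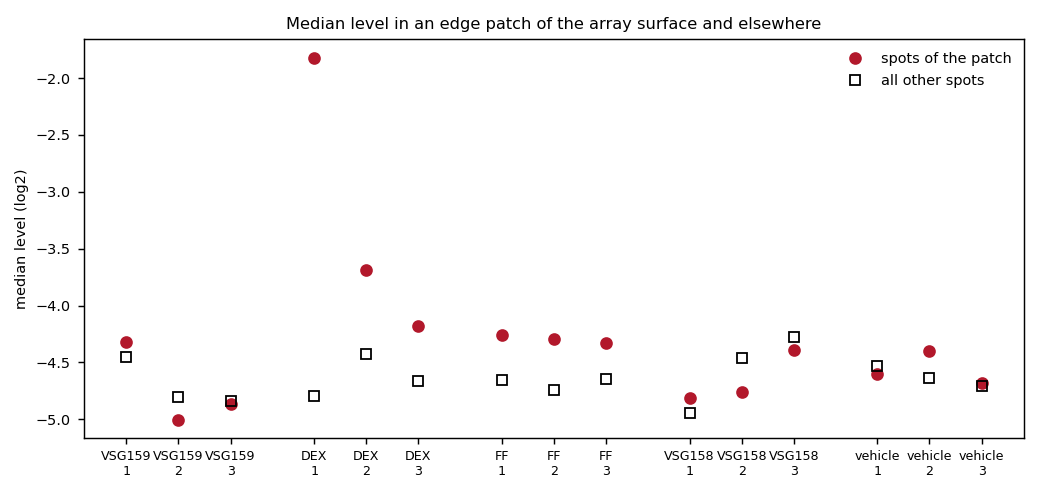
Median level (log2 signal minus the array's 75th percentile) of the 1024 spots of the edge patch (filled red circles) and of all other noncontrol spots (open squares) on each of the 15 arrays, ordered by group. DEX replicate 1 stands out at -1.82 in the patch, followed by DEX replicate 2 at -3.69.

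Some of the largest rises were dim with DEX. Olfr1043, an olfactory receptor gene, had levels of -1.19, -0.51 and -1.89 on the VSG159 arrays, against -2.79, -4.49 and -3.46 on the DEX arrays, a difference of 2.38 (SE 0.51, adjusted p = 0.0243) that was not called with the block (1.69, adjusted p = 0.167) or without VSG159 replicate 1 or 2 or DEX replicate 2 or 3 (adjusted p 0.0193 to 0.104). Vehicle cells were at -1.35 ± 0.89 (SD, n = 3), so DEX was the lower group there. H2ac13 was not well above background on any DEX array and was at least 2.14-fold higher with VSG159, as means of -3.19 ± 0.24 with VSG159 and -4.58 ± 0.54 with DEX (SD, n = 3 each), with adjusted p = 0.00946 and 0.0761 with the block, a call also lost without VSG159 replicate 2. On the same basis, which sets the VSG159 mean against the lowest signal well above background on each DEX array, En2 was at least 1.33-fold higher, as means of -3.88 ± 0.50 with VSG159 and -5.22 ± 0.46 with DEX (SD, n = 3 each), Ccdc15 at least 1.28-fold, as means of -3.93 ± 0.01 with VSG159 and -5.39 ± 0.57 with DEX (SD, n = 3 each), and Mlf1 at least 1.21-fold, as means of -4.02 ± 0.20 with VSG159 and -5.32 ± 0.31 with DEX (SD, n = 3 each). Their adjusted p values were 0.0334, 0.00509 and 0.031, and with the block that of Ccdc15 was 0.0417 and the other two were not called. En2 and Mlf1 also lost their calls without VSG159 replicate 1 or 2 or DEX replicate 1 or 3. Rhoj and Myh4 were not well above background with DEX and are given no fold. Depdc1a (1.30, SE 0.32, adjusted p = 0.0378) and Ceacam2 (1.26, SE 0.29, adjusted p = 0.0317) were well above background on all 6 arrays, were not called with the block and lost their calls without VSG159 replicate 1 or 2 or DEX replicate 1 or 3 (adjusted p 0.0287 to 0.133 and 0.0217 to 0.123). Another Depdc1a probe, well above background on 3 VSG159 and 2 DEX arrays, gave 0.43 (adjusted p = 0.538). For Depdc1a and Ceacam2, VSG159 minus vehicle was 0.24 and -0.06, not called. DEX minus vehicle was -1.06 and -1.32 (adjusted p = 0.0164 and 0.00271), so DEX was the lower group here too.

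The other compounds place the comparison. VSG159 against FF gave 0 limma calls of 19500 genes (0.00%; 1177 at an unadjusted p under 0.05; lowest adjusted p 0.233), and VSG159 against VSG158 gave 0 (0.00%; 1203 at that p; lowest adjusted p 0.803). Without VSG159 replicate 3 these counts were 96 and 34, without DEX replicate 2 the first was 1, and with slide as a fixed block 1 and 34. For Il1b, VSG159 minus FF was -0.12 and VSG159 minus VSG158 was -0.41. For Cxcl3 they were -0.68 and -0.74, for Fbxo5 0.23 and 0.26, and for Hp -0.12 and -0.17. None of these 8 differences was called. Set beside vehicle, the median difference of the DNA replication list was 1.84 with VSG159 and 1.25 with DEX, that of proinflammatory cytokines was -1.78 and -1.31, and that of CXC chemokines was -0.66 and 0.08. The 2 comparisons with vehicle share the vehicle arrays. VSG158 and vehicle lay on the first slide and FF on the second.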

How the data were processed

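The deposited signal intensity of each spot, after spatial and multiplicative detrending per the file headers, came from Agilent's scanner software (Feature Extraction 10.7.3.1). The authors' deposited value table holds log2 values, whose method and centring are not given in the sources used here, and served as an alternative. The only tool in the submitters' notes on processing is limma, with no version. Control spots (3671 of 62976) and spots flagged as outliers were left out, which left 1891 gene values missing over the 15 arrays, and 28508 probes well above background on at least 2 of 3 arrays of a group were kept, 1 per gene (the brightest). Group means of all 15 arrays were fitted with limma 3.58.1 in R 4.3.3 (residual degrees of freedom 10) with Benjamini-Hochberg adjustment. The procedure was run on simulated arrays with independent noise, without a slide effect or an array that stands apart. That run therefore cannot show how the calls fare under the slide layout of these data. RefSeq updated 349 gene names. The number of arrays limits the precision. Other software was the R package data.table (version 1.17.8), Python 3.11.15 and matplotlib 3.10.9.

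Genes and lists were chosen with earlier results of these data known. By rule, named genes were the 15 largest rises and falls among called genes whose groups did not overlap, with all 3 arrays of a group well above background, predicted names skipped, with key genes and up to 4 per list by adjusted p. Not all are described, some were added after their values were seen, and 1 called gene is not reported here.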

Additional observations from a re-analysis of the deposited data

How the results depend on the processing

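The 82 genes named here as called kept their direction in each of the 20 alternatives in which they were measured. They were chosen as called in these same data, nearly all called genes having groups without overlap. Leaving out 1 array or fitting the slide block could thus hardly turn their direction, and its constancy is no separate support. Of the 82, 50 kept their call without any 1 of the 6 arrays, 50 with slide as a fixed block and 52 with slide as a random block. The counts of calls moved more. Against 1082 genes called and 150 called at least 2-fold, slide as a fixed block gave 666 and 371, slide as a random block 221 and 72, and slide 2 alone 196 and 174. Slide with array position gave 0 and 0 limma calls (811 genes at an unadjusted p under 0.05), as did the 6 arrays alone (3341 genes, lowest adjusted p 0.0514). Scaling to the array median gave 30 and 30, normexp with quantile normalization 466 and 72, the values the authors deposited as a table gave 377 and 68, and no filter on dim probes 159 and 70. Quantile normalization gave 713 genes called and the mean over a gene's probes 683. Leaving out 1 array gave 194 to 1574 genes called and 63 to 303 at least 2-fold, the highest without VSG159 replicate 3 and the lowest without VSG159 replicate 2. The cause of these shifts was not tested, except that the smaller fits hold fewer arrays. VSG159 against FF gave 0 calls, 1 with slide as a fixed block and 0 to 96 without 1 array. VSG159 against VSG158 gave 0, 34 with the block and 0 to 34 without 1 array, and slide 2 alone could not be fitted because it holds no VSG158 array. With the replicate number as a block 484 genes were called, but same-numbered VSG159 and DEX arrays deviated together at r = -0.34, 0.02 and -0.30, so the numbers do not pair the samples. Other probes of the called genes numbered 39, of which 17 were called in the same direction, 20 shared the sign but missed the threshold, and 2 had the opposite sign and were not called.

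The main limit is that 2 of 3 VSG159 arrays lay on another slide than DEX, so slide and compound are partly confounded, and the fixed block rests on VSG159 replicate 3, which stands apart. The doses were equal but single, and whether replicates are separate cultures is not stated. Arrays show RNA, not protein. Probes near background give only bounds.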
